A study of Homo sapiens with 12 samples.

Results

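Protein-coding gene expression was compared between PC3 and VCaP, 2 established human prostate cancer cell lines, in the 6 of the series' 12 libraries that had received a non-targeting control siRNA (NSI). Each line gave 3 of these libraries. The other 6 had received siRNA against FOXA1, a forkhead transcription factor whose bearing on splicing the series addresses, and were used here only to measure the line difference a second time. Of 60106 annotated genes, the 20298 protein-coding ones were kept, because the libraries were made with different kits. PC3 (ATCC CRL-1435) grew in RPMI-1640, was given 20 nM siRNA and was sequenced from polyadenylated RNA with the TruSeq stranded mRNA kit. VCaP (ATCC CRL-2876) grew in DMEM, was given 40 nM siRNA and was sequenced with the TruSeq total RNA kit. Both had 10% FCS and RNAiMax and were collected after 72 h. Line, kit, siRNA dose, medium, depth and the use of strand in counting changed together and cannot be told apart in any difference given below. The labels do not say whether replicates came from separate cultures, so p-values measure only the spread between these libraries.

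Luminal cells of the prostate respond to androgens, steroid hormones that induce secreted proteases such as prostate-specific antigen. FOXA1 and HOXB13 are transcription factors of the prostate lineage. VCaP, from a vertebral metastasis, is known to respond to androgen and to carry a fusion of TMPRSS2 to the ETS factor gene ERG, and PC3, from a bone metastasis, to grow without androgen.

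The promoters of KLK3 and KLK2 are shown because these neighbouring genes, which code for prostate-specific antigen and a related kallikrein protease, are classical androgen-induced genes. Each line gives the 250 bases before the gene's start from RefSeq (GRCh38.p14), 5′ to 3′ on the plus strand, at chr19:50854665-50854914 for KLK3 and chr19:50873189-50873438 for KLK2. Capitals mark a match to a loose form, 13 letters long, of the androgen response element, an inverted repeat, searched on both strands as the only motif.
KLK3: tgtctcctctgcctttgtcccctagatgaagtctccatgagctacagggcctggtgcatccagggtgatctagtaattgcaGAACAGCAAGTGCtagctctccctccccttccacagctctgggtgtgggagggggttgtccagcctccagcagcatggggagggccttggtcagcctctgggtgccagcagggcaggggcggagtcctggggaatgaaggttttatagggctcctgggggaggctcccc
KLK2: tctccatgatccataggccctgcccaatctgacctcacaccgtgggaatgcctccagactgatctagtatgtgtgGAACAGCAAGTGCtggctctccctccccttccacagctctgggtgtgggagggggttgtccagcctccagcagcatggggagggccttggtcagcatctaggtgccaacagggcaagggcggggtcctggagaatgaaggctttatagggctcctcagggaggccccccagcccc
Each sequence holds 1 match, at base 82 of the KLK3 window and base 76 of the KLK2 window, with the same letters. The aligned windows were identical at 205 of 241 bases (85.1%). In RefSeq windows of 300 bases, which add the first bases after the start, 2.65% of 27305 genes had a match. A window was found for 25 of the androgen-induced genes described below, of which KLK3, KLK2 and CENPN had one. A match describes letters only, and no binding was measured.

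The lines differed in most genes that could be tested. The log2 fold change is VCaP minus PC3 throughout, and a call is an adjusted p under 0.05 (edgeR's quasi-likelihood test, Benjamini-Hochberg over all genes tested) with a log2 fold change of at least 1 in size. Of 16153 genes tested, 4705 were called higher in VCaP (29.1%) and 5069 higher in PC3 (31.4%), and 4145 had too few counts. An adjusted p under 0.05 alone was reached by 87.1%, and the groups did not overlap in 88.6%, so the counts for gene lists below are read against these shares. A log2 fold change of at least 3 in size was found for 1879 genes higher in VCaP and 1989 higher in PC3, and the median over all genes tested was −0.11.

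The PC3 libraries totalled 141593267 to 188226483 counts and those of VCaP 48187047 to 59839211, and protein-coding genes took 94.2% to 94.5% and 68.3% to 70.5% of them. Levels are given as CPM, protein-coding counts scaled to a common library size with TMM factors. A total of 3 counts over a line, the detection limit used here, equals 0.00724 CPM in PC3 and 0.0247 CPM in VCaP and covers counting error only. PC3 replicate 2 stood apart from the other PC3 libraries, with a chi-square per degree of freedom of 228 and 157 against them, where they differed from each other by 52.3. VCaP replicate 3 stood apart as well, with 22.3 and 22.8 against 7.39. Without PC3 replicate 2, 4542 genes were called higher in VCaP and 4823 higher in PC3, and without VCaP replicate 3, 4705 and 5291.

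The kallikrein genes were abundant in VCaP and close to the detection limit in PC3. KLK3 (chromosome 19, 51358171 to 51364020, plus strand, GRCh37, as all coordinates below) had 134, 68.4 and 71.5 CPM in VCaP, and all of PC3 held 2.67 counts of it. KLK2 had 2409, 1996 and 2006 CPM in VCaP and 0.0307, 0.0161 and 0 CPM in PC3. Every VCaP library was thus far above every PC3 library for both genes. With 3 libraries a line, a two-sided exact permutation test of KLK3, ERG and FOXA1 gave p 0.1 for each, the smallest it can give.

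**Figure D1:**
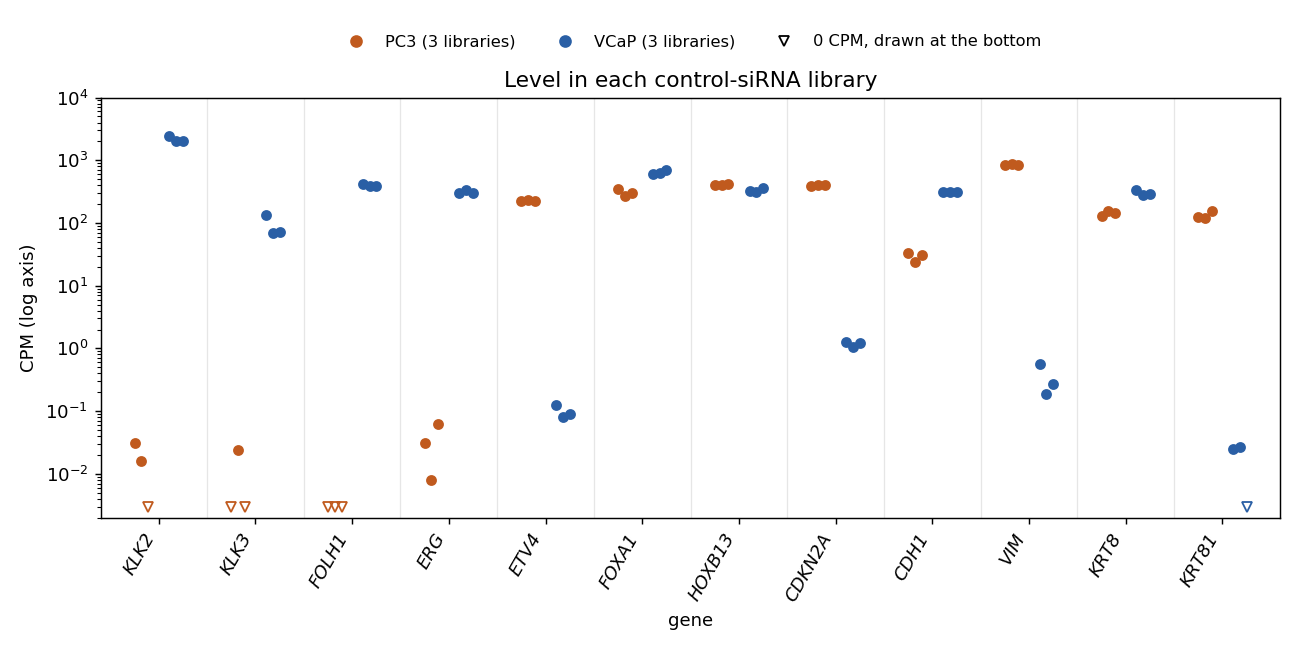
CPM (log axis) of 12 genes in each of the 3 PC3 and 3 VCaP control libraries, 1 point per library, with libraries at 0 as open triangles at the bottom. KLK2, KLK3, FOLH1 and ERG lie at or near the bottom in PC3, ETV4 and KRT81 in VCaP, and HOXB13 lies between 309 and 421 CPM in both lines.

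Androgen-induced genes as a list were mostly higher in VCaP. Of 37 listed androgen-induced genes, all tested, 31 were called higher in VCaP (83.8%, against 29.1% of all genes), 1 higher in PC3 and 5 neither, with a median of 3.03. ACPP, which codes for prostatic acid phosphatase, averaged 2967 ± 183 CPM in VCaP and 4.08 ± 0.512 CPM in PC3 (SD, n = 3 each). TMPRSS2, the serine protease gene fused to ERG in VCaP, had 154, 164 and 145 CPM in VCaP and 0.354, 0.467 and 0.394 CPM in PC3. ZBTB16, a zinc finger repressor, had 47.8, 51.1 and 46.7 CPM in VCaP against 0, 0 and 0.00626 CPM in PC3. Each of these was under 5 CPM in PC3, whereas FKBP5, a co-chaperone of steroid receptors, had 17.1 to 19.8 CPM in PC3 and 60.8 to 67.4 CPM in VCaP. NDRG1, a stress-responsive gene, was not called, at 1749 to 2415 CPM in PC3 and 1034 to 1113 CPM in VCaP. ALDH1A3, a retinaldehyde dehydrogenase, was the member called higher in PC3, with 309, 216 and 321 CPM against 41.3, 39 and 36.9 CPM. Exons on the other strand cover 29.2% of the ALDH1A3 exons, and PC3 counting did not use strand. Without PC3 replicate 2 there were 2 members called higher in PC3.

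Transcription factors and coregulators of the luminal lineage were partly shared by the lines. Of 18 tested, 11 were called higher in VCaP (61.1%, against 29.1% of all genes), 3 higher in PC3 (16.7%, against 31.4%) and 4 neither. GRHL2, a grainyhead factor of epithelial cells, had 476, 430.3 and 411 CPM in VCaP and 0.146, 0.258 and 0.15 CPM in PC3. GATA2, a zinc finger factor, had 425 to 433 CPM in VCaP against 1.35 to 1.59 CPM in PC3. Both were separated by more than 8 on the log2 scale. HOXB13 was not called, at 402, 399.6 and 421 CPM in PC3 against 328, 309 and 359.5 CPM in VCaP.

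FOXA1 (chromosome 14, 38059189 to 38064239, minus strand) was expressed in both lines, at 344, 274 and 303 CPM in PC3 against 598, 622 and 711 CPM in VCaP. The groups did not overlap, and the log2 fold change of 1.07 (standard error 0.12, adjusted p by edgeR of 6.38e-06) lay just past the size needed for a call. The FOXA1 call was lost without PC3 replicate 2 (0.99), without VCaP replicate 3 (0.97) and with all gene types in the fit (0.85). The factors called higher in PC3 were TRPS1, GATA3 and CREB3L1. TRPS1, a GATA-type repressor, had 36.5, 29.4 and 33.3 CPM in PC3 against 0.277, 0.159 and 0.0682 CPM in VCaP.

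Members of the ETS family, factors that share a DNA-binding domain, differed in both directions. Of 25 tested, 9 were called higher in VCaP and 9 higher in PC3 (36% each), and 7 neither. Of all genes tested, 29.1% and 31.4% were called in these directions. ERG (chromosome 21, 39751949 to 40033704, minus strand) had 296, 341 and 302 CPM in VCaP and 0.0307, 0.00805 and 0.0626 CPM in PC3, a log2 fold change of 13.03 (SE 0.25). EHF, an epithelial member, had 283 to 331 CPM in VCaP and 1.09 to 1.43 CPM in PC3. The PEA3 subfamily, ETV1, ETV4 and ETV5, had the opposite order. ETV4 had 221, 236 and 227 CPM in PC3 against 0.126, 0.0795 and 0.0909 CPM in VCaP, ETV1 82.6 to 100.1 CPM and ETV5 126 to 159 CPM in PC3, and neither ETV1 nor ETV5 passed 0.151 CPM in a VCaP library. ETS1, known from lymphoid and invasive cells, had 155 to 206 CPM in PC3 and 1.59 to 2.49 CPM in VCaP.

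Markers of epithelial junctions and of mesenchymal cells lay on opposite sides. E-cadherin joins epithelial cells and is tied to actin by catenins, while vimentin and the ZEB, SNAI and TWIST repressors mark the mesenchymal state. Of 35 junction genes, 23 were called higher in VCaP (65.7%, against 29.1% of all genes) and 5 higher in PC3. Their median was 1.58. CDH1, which codes for E-cadherin, had 32.7, 24.1 and 31 CPM in PC3 against 307, 312 and 313 CPM in VCaP. CTNNA1, the α-catenin gene, had 2.07, 0.982 and 1.76 CPM and 74.1, 77.2 and 72 CPM, a log2 fold change of 5.53 (SE 0.22). OVOL1, a repressor of mesenchymal genes, had 19.7 to 23 CPM in VCaP and 0.0231 to 0.0626 CPM in PC3. CDH3, which codes for P-cadherin, lay the other way at 48.6 to 55.1 CPM in PC3 and 8.62 to 11.2 CPM in VCaP, as did PKP1, a desmosomal plaque gene, at 555 to 663 and 146 to 173 CPM.

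Of 35 mesenchymal genes tested, 30 were called higher in PC3 (85.7%, against 31.4% of all genes) and 2 higher in VCaP, with a median of −5.80. VIM, which codes for vimentin, had 835, 861 and 841 CPM in PC3 against 0.553, 0.185 and 0.273 CPM in VCaP, a log2 fold change of −11.29 (standard error 0.23, adjusted p by edgeR of 2.33e-11). Exons of a gene on the other strand cover 52.6% of the VIM exons, and PC3 counting did not use strand. CDH11, a cadherin of mesenchymal and bone cells, had 334 to 443.8 CPM in PC3 and at most 0.0252 CPM in VCaP. ZEB1 had 22.1 to 34.3 CPM, SNAI2 70.1 to 85.9 CPM and TWIST1 13.4 to 17.5 CPM in PC3, and none of the 3 passed 0.0795 CPM in a VCaP library. THBS1, which codes for the matrix protein thrombospondin 1, was an exception, with 45.8, 39 and 41.6 CPM in PC3 against 1403, 1288 and 1487 CPM in VCaP. The other was TGFBI, named here after its values were seen, at 0.0692 to 0.138 and 0.185 to 0.523 CPM, and without VCaP replicate 3 only 1 mesenchymal gene was called higher in VCaP.

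Most keratins and basement membrane anchors were higher in PC3. Keratins are the intermediate filaments of epithelia, and integrin α6β4, laminin-332 and collagen XVII build the hemidesmosome. Of 14 keratins, 10 were called higher in PC3 (71.4%, against 31.4% of all genes) and 2, KRT14 and KRT8, higher in VCaP. KRT81, a hair keratin, had 125, 121 and 157 CPM in PC3 against 0.0252, 0.0265 and 0 CPM in VCaP, and KRT19 574 to 751 against 23.1 to 32.6 CPM. KRT8, a keratin of simple epithelia, had 131, 157 and 145 CPM in PC3 against 335, 282 and 289 CPM in VCaP, and its partner KRT18 274 to 359 and 154 to 179 CPM. The KRT8 call (1.07) was lost without PC3 replicate 1 (1.00), without VCaP replicate 1 (0.97), with all gene types in the fit (0.85) and with an offset for exon length (0.90).

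Of 26 hemidesmosome, integrin and laminin genes, 14 were called higher in PC3 and 7 higher in VCaP. These were 53.8% and 26.9% of the list, against 31.4% and 29.1% of all genes. With the length offset, and with the GC and length offset, 4 were called higher in VCaP. ITGB4, the β4 integrin gene, had 925, 676 and 1027 CPM in PC3 against 4.55, 3.29 and 3.59 CPM in VCaP. LAMB3, a chain of laminin-332, had 137 to 142 CPM in PC3 and 0.636 to 0.742 CPM in VCaP, and COL17A1 19.5 to 21.1 against 0.182 to 0.277 CPM. LAMA3, another chain of that laminin, had 81.5 to 125 CPM in PC3 and 236 to 330.3 CPM in VCaP, a call (1.42) that was lost with the length offset (0.46). LAMA1, the laminin α1 chain, had 7.18 to 10.1 CPM in VCaP and at most 0.0188 CPM in PC3.

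**Figure D2:**
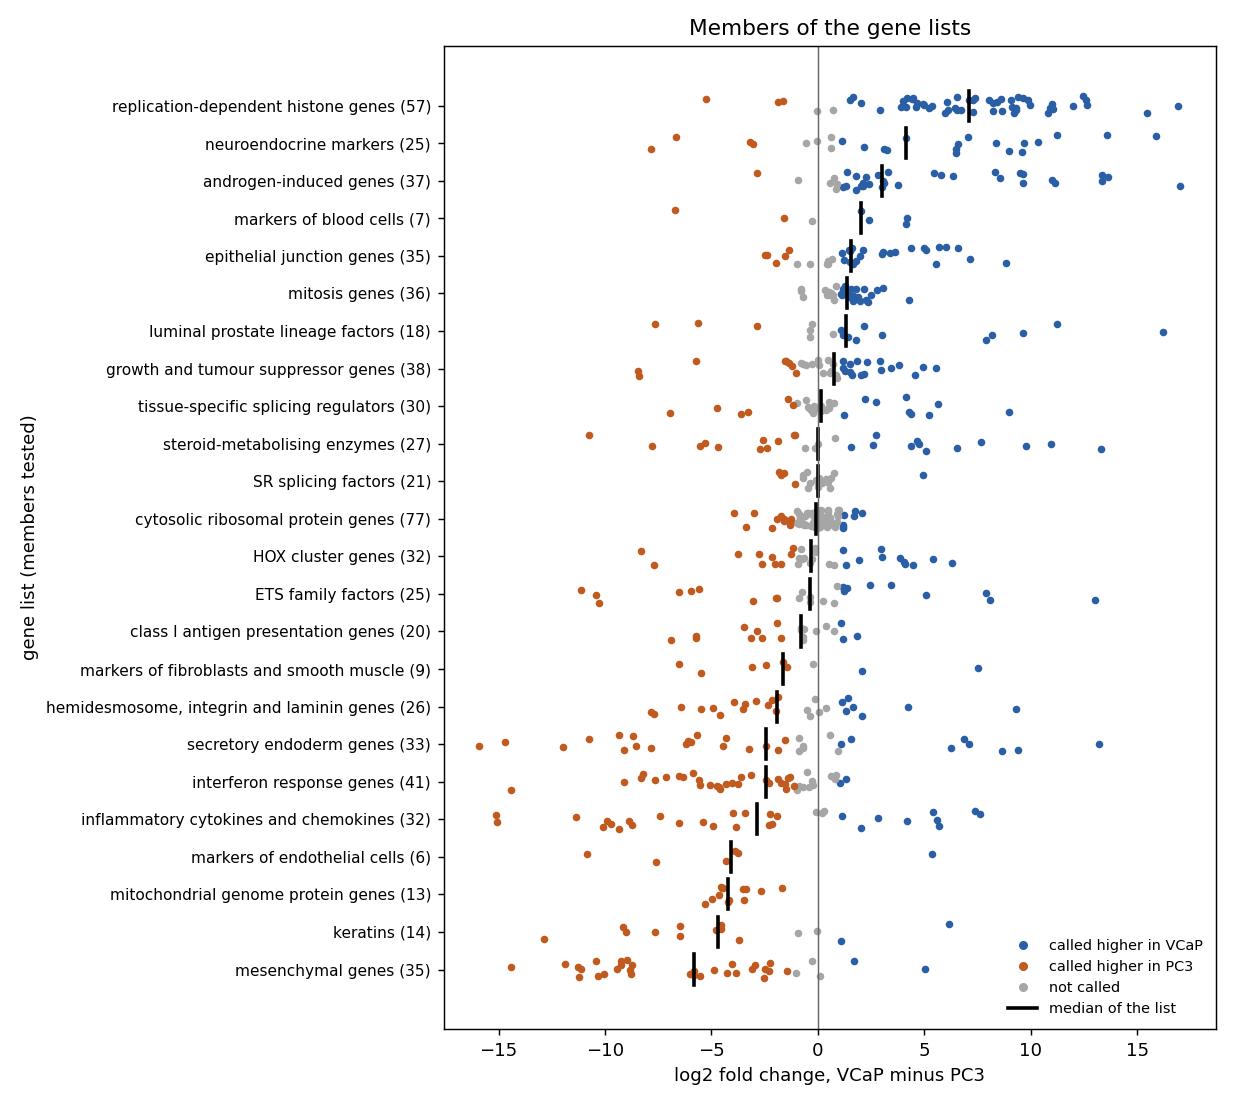
Log2 fold change (VCaP minus PC3) of the tested members of the gene lists shown, 1 point per gene, with the median of each as a bar. The histone, neuroendocrine and androgen-induced lists have medians of 7.12, 4.12 and 3.03, and the mesenchymal and keratin lists −5.80 and −4.68.

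Most of the neuroendocrine markers tested were higher in VCaP. Of 25 tested, 17 were called higher in VCaP (68%, against 29.1% of all genes) and 4 higher in PC3. Their median was 4.12. SCGN, a calcium sensor of endocrine cells, had 84.8, 85.7 and 82.8 CPM in VCaP, with 0.75 counts in all of PC3. NPY, a secreted neuropeptide, had 404, 305 and 325 CPM in VCaP and at most 0.0322 CPM in PC3. CHGA, which codes for the granule protein chromogranin A, had 16.9, 20.0 and 26.5 CPM in VCaP and at most 0.0161 CPM in PC3. FOXA2, a forkhead factor of endoderm, lay the other way, with 33.4, 39.1 and 34.9 CPM in PC3 against 0.0755, 0.212 and 0.182 CPM in VCaP. So did POU3F2, a neural POU factor, at 7.37 to 7.77 CPM in PC3 and 0.053 to 0.0909 CPM in VCaP. ENO2, another listed marker, also did, at 63.3 to 74.9 CPM in PC3 and 7 to 7.75 CPM in VCaP.

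Secreted products of gut and liver were also divided between the lines. Of 33 tested, 19 were called higher in PC3 and 8 higher in VCaP (57.6% and 24.2%, against 31.4% and 29.1% of all genes). MUC5B, a gel-forming mucin, had 6660, 2728 and 6326 CPM in PC3 against 0.126, 0.053 and 0.0682 CPM in VCaP, with PC3 replicate 2 well below the other PC3 libraries. TFF2, a trefoil peptide of gastric mucus, had 37.8, 27.9 and 46.6 CPM in PC3 and no count in VCaP, at least 1516-fold higher against 3 counts over the line. ALB, the serum albumin gene, had 89.1, 93 and 90.5 CPM in VCaP and 0.161, 0.0724 and 0.156 CPM in PC3. TTR, a plasma carrier of thyroid hormone, had 16.1, 13.4 and 10.6 CPM in VCaP and no count in PC3, at least 1843-fold higher.

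Interferon-stimulated genes were higher in PC3. Interferons signal through STAT2 and IRF9, among other factors, to antiviral genes. Of 41 tested, 29 were called higher in PC3 (70.7%, against 31.4% of all genes) and 2 higher in VCaP, with a median of −2.44. BST2, which tethers virus particles to the cell, had 167, 247 and 219.9 CPM in PC3 against 0, 0.0265 and 0 CPM in VCaP. OASL had 28.8 to 36.3 CPM and IFI44L 21.3 to 37.6 CPM in PC3, against at most 0.0682 and 0.106 CPM in VCaP. STAT2 was not called, at 51.4 to 75.3 and 48.9 to 61.6 CPM. HERC5 and OAS3 were the calls higher in VCaP (1.32 and 1.05), and OAS3 was lost without PC3 replicate 2 (0.82), which left 1. HERC5 was lost with the GC and length offset (0.95), and OAS3 was 0.34 with the length offset, so neither call held in every fit. Library size alone gave 4 calls higher in VCaP.

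Class I antigen presentation differed by component. Of 20 genes, 9 were called higher in PC3 (45%, against 31.4% of all genes), 3 higher in VCaP (15%, against 29.1%) and 8 neither. The heavy chain gene HLA-E had 134, 156 and 147 CPM in PC3 against 3.27, 2.65 and 2.3 CPM in VCaP. B2M, the light chain, had 623 to 737 CPM in PC3 and 172 to 198 CPM in VCaP. CANX, a chaperone of the heavy chain, had 432 to 623 CPM in PC3 and 1851 to 2061 CPM in VCaP. HLA genes are near-identical copies that vary between genomes, so their counts are uncertain.

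Among inflammatory cytokines and chemokines, 20 of 32 were called higher in PC3 (62.5%, against 31.4% of all genes) and 9 higher in VCaP. Their median was −2.87, or −2.79 with genes that had no count in a line set to their bounds. IL1B, an inflammasome cytokine, had 48.4, 50.6 and 46.5 CPM in PC3 and no count in VCaP, at least 1963-fold higher. LIF, a cytokine of the IL-6 family, had 162, 137 and 178 CPM in PC3 against 0.201, 0.133 and 0.227 CPM in VCaP. The receptor gene IL1R1 lay opposite to its ligand, at 28.9 to 40.2 CPM in VCaP and 0.588 to 1.04 CPM in PC3. CXCL11, a chemokine known to be interferon-induced, had 10.4, 13.3 and 16.9 CPM in VCaP and 0.00769, 0.0644 and 0.15 CPM in PC3.

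Of 38 growth and tumour suppressor genes, 17 were called higher in VCaP and 8 higher in PC3. These were 44.7% and 21.1% of the list, against 29.1% and 31.4% of all genes. With the length offset the counts were 11 and 10, and the median fell from 0.78 to 0.45. The neighbouring CDK inhibitor genes CDKN2A and CDKN2B were both high in PC3. CDKN2A had 383, 401 and 403 CPM in PC3 against 1.28, 1.03 and 1.21 CPM in VCaP, and CDKN2B 298 to 386 against 0.981 to 1.11 CPM. MET, the receptor of hepatocyte growth factor, had 483, 389.6 and 419.5 CPM in PC3 against 7.78, 8.43 and 8.5 CPM in VCaP. The retinoblastoma gene RB1 overlapped between the lines, at 26.2 to 39.4 and 32.3 to 40.7 CPM.

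Mitosis genes leaned toward VCaP. Of 36 tested, 24 were called higher in VCaP and 0 higher in PC3 by edgeR and also by DESeq2, with a median of 1.39. The 24 are 66.7% of the list, against 29.1% of all genes. With all gene types in the fit, 2 were called higher in PC3. With no minimum fold, PLK1, UBE2C and PTTG1 were higher in PC3 at an adjusted p under 0.05, and the same 3 at an unadjusted one. TOP2A, the topoisomerase of chromosome separation, had 141, 109 and 137 CPM in PC3 against 885, 894 and 841 CPM in VCaP, and KIF20A, a kinesin of cytokinesis, 37.7 to 39.6 against 308 to 349 CPM. ASPM, a spindle pole protein, had 14.5, 9.5 and 14.2 CPM in PC3 against 284, 298 and 152 CPM in VCaP, where replicate 3 was low, as it was for CENPE at 153, 160.5 and 56.7 CPM in VCaP. The median with an offset for GC content and length was 1.13.

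Steroid-metabolising enzymes differed gene by gene, with 12 of 27 called higher in VCaP and 11 higher in PC3. These are 44.4% and 40.7% of the list, beside 29.1% and 31.4% of all genes tested. UGT2B17, which attaches glucuronic acid to androgens, had 12.1, 16.8 and 13.1 CPM in VCaP and no count in PC3, at least 1933-fold higher. Its close copy UGT2B15 had 41, 54.8 and 43 CPM in VCaP and at most 0.0644 CPM in PC3, and the split of fragments between these copies is uncertain. HSD17B2, which oxidises testosterone, had 22, 30.7 and 21 CPM in PC3 against 0.78, 1.03 and 1.07 CPM in VCaP. AKR1C3, which reduces androstenedione to testosterone, had 5.62 to 7.43 CPM in PC3 and 35.7 to 39.2 CPM in VCaP.

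HOX genes, which record position along the body axis, were also mixed, with 11 of 32 called higher in VCaP and 10 higher in PC3. These are 34.4% and 31.2% of the list, close to the 29.1% and 31.4% of all genes tested. HOXC6 had 32.7, 38 and 32 CPM in VCaP and 2.04, 1.91 and 2.13 CPM in PC3. HOXB9 had 24.1, 20.6 and 24 CPM in PC3 against 0.101, 0.106 and 0.114 CPM in VCaP. Of the neighbours HOXA9 and HOXA10, HOXA9 had 50.5 to 55.7 CPM in PC3 and 11.5 to 12.1 CPM in VCaP, and HOXA10 18.6 to 21.2 and 74.3 to 80.7 CPM, in the opposite order.

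Most SR splicing factors differed by less than the fold of a call. Of 21 genes of SR proteins and their kinases, 16 were not called, 4 were higher in PC3 and 1 higher in VCaP. These calls are 19% and 4.76% of the list, beside 31.4% and 29.1% of all genes tested. With no minimum fold, 9 were higher in PC3 and 8 higher in VCaP at an adjusted p under 0.05. SRSF1 overlapped, at 287, 268 and 313 CPM in PC3 against 283, 296 and 298 CPM in VCaP. CLK2, a kinase of SR proteins, had 80.3 to 92 CPM in PC3 and 21.1 to 26.4 CPM in VCaP. Of 30 tissue-specific regulators, 9 were called higher in VCaP and 6 higher in PC3, or 10 higher in PC3 with the GC and length offset. These are 30% and 20% of the list, beside 29.1% and 31.4% of all genes tested. ESRP1, which directs epithelial exon choice, had 13.8, 7.49 and 15.4 CPM in PC3 against 248, 254 and 252 CPM in VCaP. QKI, a regulator active in mesenchymal cells, had 245, 142 and 249 CPM in PC3 against 1.79, 1.72 and 1.64 CPM in VCaP. SRRM4, a regulator of neural microexons, had 8.28, 10.3 and 9.23 CPM in VCaP and at most 0.0322 CPM in PC3.

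The largest differences, where the higher line averaged 50 CPM or more, included several surface and secreted proteins. FOLH1, which codes for prostate-specific membrane antigen, had 420.3, 383 and 391 CPM in VCaP and no count in PC3, at least 54975-fold higher. SI, the intestinal sucrase-isomaltase gene, had 129, 136 and 107 CPM in VCaP and no count in PC3, at least 17134-fold higher. TDRD1, a germline gene, had 345 to 367 CPM and CRISP3, a secreted protein, 693 to 733 CPM in VCaP, with 0.5 and 1 counts in all of PC3. In the other direction DKK1, a secreted Wnt inhibitor, had 199, 240 and 198 CPM in PC3 and no count in VCaP, at least 8600-fold higher. TCN1, a carrier of vitamin B12, had 84.4, 95.8 and 85.3 CPM in PC3 and no count in VCaP, at least 3583-fold higher. ABI3BP, a matrix protein, had 915, 472 and 769 CPM in PC3 and 1.37 counts in all of VCaP. The cancer-testis antigens MAGEA3 and MAGEA6, near-identical copies whose separate values are uncertain, had 131 to 147 and 109 to 122 CPM in PC3 with 0.5 counts each in VCaP. In all, 304 genes had at least 1 CPM in every VCaP library and at most 0.05 CPM in every PC3 library, and 254 the reverse, with chromosome Y left out. The limit of 0.05 CPM equals 6.67 counts in the smallest PC3 library and 1.7 in the smallest VCaP library. These numbers of genes therefore rest on unlike limits and cannot be compared with each other.

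Some of these genes lay side by side. Runs of neighbours were defined after their values were seen, as consecutive tested genes with a mean of at most 0.2 CPM in one line of which at least 4 had at least 1 CPM in the other, and are given as a description. There were 6 runs low in PC3 and 5 low in VCaP. On chromosome 17 (40253422 to 40674629), 11 genes from DHX58 to ATP6V0A1 were low in PC3. STAT3, a transducer of cytokine signals, had 0.0231, 0.0161 and 0.0188 CPM in PC3 against 61.6, 56.1 and 54.1 CPM in VCaP, and STAT5B, in the same run, averaged 0.0666 and 26 CPM. KAT2A, a histone acetyltransferase, averaged 0.047 and 41.6 CPM. Genes on both flanks were expressed in PC3, with NKIRAS2 at 72.5 to 76.6 CPM and NAGLU, a lysosomal enzyme, at 10.6 to 13.7 CPM. The exons of CTD-2132N18.3 in this run lie wholly within exons of other genes on its strand, so its counts are not separate.

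**Figure D3:**
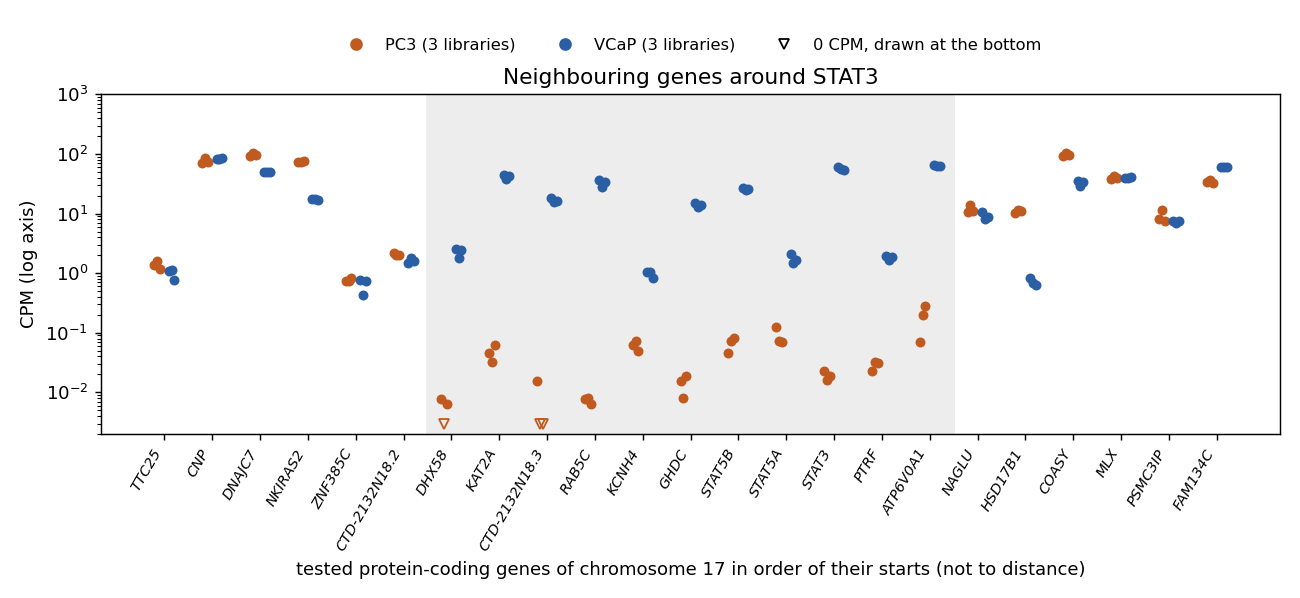
CPM (log axis) in each control library for neighbouring tested genes of chromosome 17 in the order of their starts, with the run from DHX58 to ATP6V0A1 shaded. Within the shading no PC3 point passes 0.282 CPM, while NKIRAS2 and NAGLU, outside it, are expressed in both lines.

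In VCaP, 12 neighbours from PASD1 to MAGEA3 on chromosome X (150732094 to 151938240) were low. They include GABRA3, a GABA receptor subunit, with 35.6, 25.5 and 30.9 CPM in PC3 and no count in VCaP, and several MAGEA genes. Over all tested genes of chromosome X the median was −1.08, with 50.6% called higher in PC3, against 31.4% of all genes. A run of 6 genes for S100 calcium-binding proteins on chromosome 1 (153509623 to 153589462) was low in VCaP too, with S100A16 at 797, 890.5 and 909 CPM in PC3 against 0.0503, 0 and 0 CPM in VCaP. The kallikrein genes from KLK15 to KLK4 formed a run low in PC3. A different pattern was seen on chromosome 10 (75545340 to 81076285). This stretch was picked, after its values were seen, from windows of 20 consecutive tested genes along the chromosomes, and is a description only. From ZSWIM8 to ZMIZ1, 20 of 20 genes were called higher in PC3, against 31.4% of all genes, with a median of −3.10. Most were still expressed in VCaP. VCL, which codes for vinculin, averaged 658 CPM in PC3 and 72.7 CPM in VCaP there. Copy number was not measured.

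Mitochondrial, histone and some ribosomal protein genes differed along with the makeup of the libraries. Genes of the mitochondrial genome took 12.9% to 15.4% of protein-coding counts in PC3 and 1.37% to 1.5% in VCaP. Of these, 13 of 13 were called higher in PC3, against 31.4% of all genes. MT-ND6, a subunit of complex I, had 3204, 2708 and 2223 CPM in PC3 against 75, 74.5 and 55.7 CPM in VCaP. It is the only listed mitochondrial gene on the minus strand, and PC3 counting did not use strand. Replication-dependent histone genes, whose transcripts are known to lack a poly(A) tail, took 0.0322% to 0.0375% of counts in PC3 and 0.938% to 1.1% in VCaP. Of 57 tested, 52 were called higher in VCaP (91.2%, against 29.1% of all genes) and 3 higher in PC3. HIST1H4L had 165, 171 and 187 CPM in VCaP, with 0.11 counts in all of PC3, whereas HIST1H4I had 20.1, 18.6 and 20.6 CPM in PC3 against 0.503, 0.504 and 0.523 CPM in VCaP. Both code for the same H4 protein, and histone genes are close copies, so single values are uncertain. Of 77 ribosomal protein genes, 59 were not called, 11 were higher in PC3 and 7 higher in VCaP. These calls are 14.3% and 9.09% of the list, against 31.4% and 29.1% of all genes. Without PC3 replicate 2, 11 were higher in VCaP. This balance turned with the setting: all gene types in the fit gave 19 higher in PC3 and 3 higher in VCaP, and the length offset 11 and 17. RPL28 had 983 to 1355 CPM in PC3 and 68.6 to 83.5 CPM in VCaP, and RPS18 494 to 657 and 2067 to 2934 CPM. Library kit and line cannot be told apart in these genes.

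Exon length and GC content moved with the line difference over all genes. The median log2 fold change was −0.61 in the fifth of genes with the shortest exons (up to 1962 bases in total) and 0.58 in the fifth with the longest (from 6127 bases). It was 0.52 in the fifth with the lowest exon GC content (up to 41.7%) and −0.70 in the highest (from 59%). Genes whose exons overlap exons on the other strand had a median of −0.26, against −0.03 for the others. With GC content and length taken out by an offset, 82.7% of the calls were kept, with 4347 genes higher in VCaP and 4998 higher in PC3. The medians of the androgen-induced, mesenchymal and interferon lists were then 2.51, −6.17 and −2.79.

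**Figure D4:**
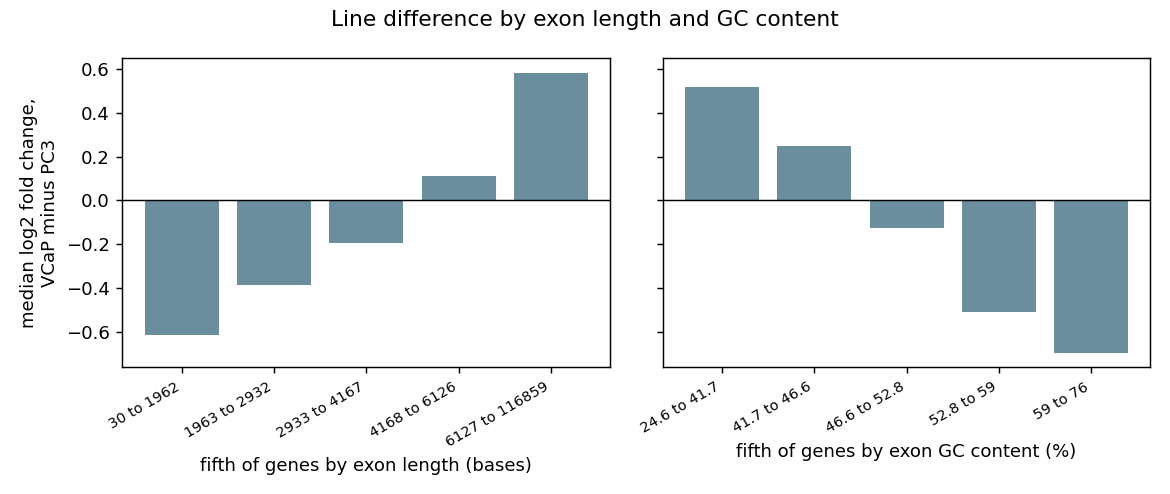
Median log2 fold change (VCaP minus PC3) of the genes tested, in 5 equal groups by exon length in bases and by exon GC content in percent. The medians go from −0.61 to 0.58 with length and from 0.52 to −0.70 with GC content.

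Markers of other cell types were mostly near 0. Blood cell markers summed to 30.8 to 35.0 CPM in PC3 and to 2.16 to 2.97 CPM in VCaP. HBB was at 0 in all 6 libraries. CD68, a lysosomal protein, gave 29.5 to 33.8 CPM of the PC3 sum. Exons of other genes on its strand cover 95.3% of the CD68 exons, so its counts are not separate. Endothelial markers summed to 77.7 to 82.0 CPM in PC3 and 6.12 to 7.61 CPM in VCaP. KDR and ROBO4 gave 26.7 to 37.9 and 31.1 to 36.5 CPM of the PC3 sum, while CDH5, the defining cadherin of endothelium, was at most 0.0999 CPM in any library. Fibroblast and smooth muscle markers summed to 40.6 to 44.5 CPM in PC3, mostly COL1A1 (22.6 to 25.5 CPM), and to 17.4 to 29.6 CPM in VCaP, mostly LUM (10.5 to 17.4 CPM), with DES at most 0.053 CPM.

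The line difference was measured again in the libraries given siFOXA1, which are separate from the control libraries but share their kits, media and doses. There 60.6% of 16379 genes tested were called. Of the 9774 calls between the control libraries, 9615 could be tested, 8352 of these (86.9%) were called in the same direction and 41 (0.426%) in the opposite one. ERG had a log2 fold change of 12.56, VIM of −10.04 and STAT3 of 12.50 there. FOXA1, the target of the siRNA, had −0.89 in place of 1.07, and COL17A1 −0.40 in place of −6.42.

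**Figure D5:**
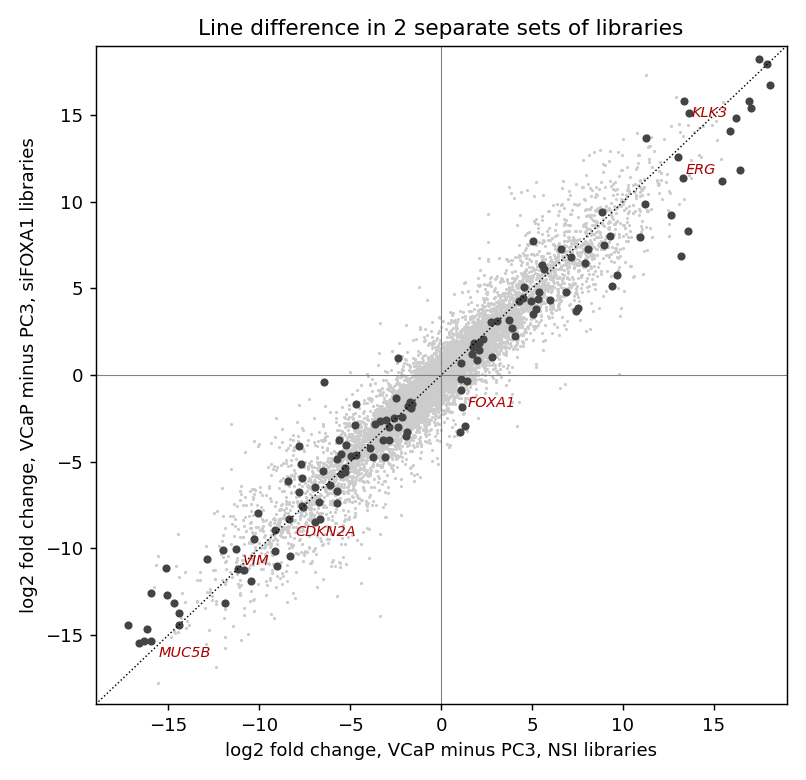
Log2 fold change (VCaP minus PC3) of each gene in the control libraries (horizontal) and in the siFOXA1 libraries (vertical), with genes tested in both as grey points, named genes as dark points and a dotted line of equal values. Of the calls between control libraries that could be tested, 98.1% had the same sign in both.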

How the data were processed

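RNA from PC3 and VCaP cells was sequenced by the authors, who deposited 1 table of estimated counts per library. Per the file headers, featureCounts 2.0.0 assigned paired fragments to genes of GENCODE v28lift37 (GRCh37), sharing multi-mapping and overlapping fragments as fractions, without strand in PC3 and with reverse strand in VCaP. STAR 2.7.3a is named in the submitters' processing notes. The deposited estimated counts were rounded to whole numbers for the test, which used protein-coding genes only. The test was edgeR 4.0.16 in R 4.3.3 (TMM factors, its default filter on low counts, quasi-likelihood, Benjamini-Hochberg) on the 6 control libraries. In simulated data on 15974 genes with a common dispersion, 100 genes were changed by 1.5 on the log2 scale and 100 by 3. The test recovered 100% of each, with 0 false calls. Far fewer genes differed there than between the lines, so this checked the procedure and gives no error rate for the comparison.

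Named genes were FOXA1, KLK3 and ERG, the 6 largest differences in each direction at 50 CPM or more, and up to 3 per direction and list at 5 CPM or more. Other list members are given by their levels. The comparison and the lists were chosen with earlier results of these data known. Alternatives covered scaling, filters, DESeq2 1.42.0, thresholds, gene types, strand overlap, depth, the replicate block and each library left out. Offsets for length and GC content were added after seeing the data. Promoters were taken from RefSeq. Genes of chromosome Y and some other genes covered by the rule are not reported here.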

Additional observations from a re-analysis of the deposited data

Results flagged for a closer look

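The line difference of FOXA1, the target of the siRNA, was not the same in the siFOXA1 libraries as in the control libraries. It changed by −1.94 on the log2 scale (SE 0.143, adjusted p 2.25e-07), by an interaction term over all 12 libraries in edgeR's quasi-likelihood test with Benjamini-Hochberg adjustment. For ERG the change was −0.451 (SE 0.599, adjusted p 0.608). The siRNA dose differed between the lines, and its part in these values was not tested.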

How the results depend on the processing

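A minimum log2 fold change of 2 left 5831 calls, 2824 higher in VCaP and 3007 higher in PC3. Leaving out each library in turn gave 9365 to 9996 calls, 4542 to 4705 higher in VCaP and 4823 to 5291 higher in PC3, and 9437 to 10209 calls between the siFOXA1 libraries. Scaling moved the balance: library size alone shifted the median by 0.28 and gave 5437 genes higher in VCaP and 4340 higher in PC3 (55.6% of calls higher in VCaP, against 48.1%), and all gene types in the fit shifted it by −0.22. List medians nearer 0 than these shifts have no settled sign. Replicate numbers follow the sample titles, and the file names carry other numbers, which the lines do not share. Replicates did not pair by title number (correlations of deviations −0.022, −0.084 and −0.015), and the fit with a replicate block gave 4720 genes higher in VCaP and 5060 higher in PC3. Of 135 named genes, 118 kept their call in every alternative and none reversed. Most had been picked as called genes with the largest fold changes in these same libraries. Their stability was largely set by that choice and says nothing about other genes. Of 50 list counts, 16 stayed within 1.5 times in every alternative. Without VCaP replicate 3, 2 endothelial markers in place of 1 were called higher in VCaP. Depth limits genes near the detection limit, where fractional counts are rounded.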
